A study of Mus musculus with 6 samples.

Results

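The genes described here are 43 genes of mitosis and the spindle, chosen by symbol from a list that names kinases and cyclins of mitotic entry, checkpoint proteins, kinetochore subunits, spindle motors and genes of anaphase and cytokinesis. All 43 were found among the 47729 genes of the deposited table, each in 1 row. Their transcripts were read from RNA sequencing of 2 mouse mammary carcinoma lines, 4T1 and 4TO7, with 3 libraries of total RNA for each line. The labels give a spontaneous tumour of the BALB/c strain as the source of both. Cells of both lines were grown in serum-supplemented DMEM and received no treatment, and no allele or agent separates the groups beyond the line itself. 4T1 is known for forming metastases at distant organs, whereas 4TO7 is known for cells that leave the primary site but rarely grow out. Each line is a single established line, so a difference between them is a difference between 2 cell populations. Nothing in the labels says whether the 3 libraries of a line came from separate cultures. The p-values weigh a difference against the spread of these 6 libraries alone, part of which may be technical.

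Mitosis begins when cyclin-dependent kinase 1, bound to a B-type cyclin, is switched on by CDC25 phosphatases. Kinetochores then join chromosomes to spindle microtubules, and the spindle checkpoint holds back the anaphase-promoting complex until every kinetochore is attached. That complex marks securin and cyclin B for destruction, separase cuts cohesin, and the central spindle directs cytokinesis. Transcripts of these genes rise together in G2 and fall after division in most cycling cells, which makes their summed level a common readout of proliferation.

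Promoters of genes expressed in G2 and mitosis often carry a cell cycle homology region, the site at which the MuvB complex binds, together with CCAAT boxes, which bind NF-Y. In the RefSeq promoter table (GRCm38.p6), 36 of the 43 genes matched by symbol, with 39 windows that run from 250 bases before to 50 after a gene start. Tpx2, Incenp, Spc24, Ccna2, Kif20a, Cdc25c and Aurkb had no entry. The homology region was searched as TTTGAA and the CCAAT box as CCAAT, each on both strands. The 2 motifs share no letters at any of the printed matches. The variant TTTAAA was counted apart, in 9 of 39 windows (23.1%) against 13.2% of all windows. From 100 bases before to 50 after the start it was in 6 of 39 (15.4%) against 5.61%. No other variant of the homology region was counted. TTTGAA occurred in 29 of 39 windows (74.4%) and in 17.9% of the 32851 windows in the table. From 100 bases before to 50 after the start, TTTGAA was found in 27 of 39 windows (69.2%) against 8.01% of all windows, and both motifs together in 23 (59.0%) against 1.93%. CCAAT alone was found in 28 of 39 of these shorter windows (71.8%) against 23.4% of all. The matches describe letters only and are not shown to be bound sites.

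Stretches of 100 bases that end 1 base before the start are printed for 7 members as examples in which TTTGAA lies upstream of a listed start. These starts are those of the RefSeq promoter table. By the gene bounds of GENCODE M21, a TTTGAA match of Cdk1, Espl1 and Ube2c lies within the gene. Capitals mark TTTGAA and CCAAT or their reverse complements, TTCAAA and ATTGG, and each sequence is written 5′ to 3′ on the strand of the gene. The first 4 belong to genes that were higher in 4T1, and the last 3 to genes that were not called by the test used below. The Prc1 stretch lies before the other of its listed starts, not the one counted in the positions below, where TTTGAA begins 5 bases before the start.
Cdk1 (chr10:69352913-69353012, minus strand): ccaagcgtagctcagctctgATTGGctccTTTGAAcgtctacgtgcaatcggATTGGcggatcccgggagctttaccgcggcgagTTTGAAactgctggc
Kif11 (chr19:37376282-37376381, plus strand): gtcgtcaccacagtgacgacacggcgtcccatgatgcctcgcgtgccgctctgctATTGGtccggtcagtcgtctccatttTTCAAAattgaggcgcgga
Cdc20 (chr4:118437344-118437443, minus strand): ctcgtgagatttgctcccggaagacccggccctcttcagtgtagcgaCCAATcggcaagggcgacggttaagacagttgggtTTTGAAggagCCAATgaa
Espl1 (chr15:102296193-102296292, plus strand): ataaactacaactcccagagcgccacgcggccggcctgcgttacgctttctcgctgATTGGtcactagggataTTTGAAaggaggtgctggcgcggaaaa
Ube2c (chr2:164769829-164769928, plus strand): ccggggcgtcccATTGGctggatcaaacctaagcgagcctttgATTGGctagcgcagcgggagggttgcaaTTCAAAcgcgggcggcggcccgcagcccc
Top2a (chr11:99024190-99024289, minus strand): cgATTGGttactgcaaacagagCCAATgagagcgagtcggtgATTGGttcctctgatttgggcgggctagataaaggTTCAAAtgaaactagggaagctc
Prc1 (chr7:80294376-80294475, plus strand): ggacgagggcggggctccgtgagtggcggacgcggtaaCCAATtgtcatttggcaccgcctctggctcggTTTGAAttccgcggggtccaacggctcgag

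With 1 window taken per gene, 24 of 32 TTTGAA matches began between 30 bases before and 50 after the start, and 44 of 64 CCAAT matches lay in the 100 bases before it. TTTGAA was present in 10 of the 12 matched genes that were higher in 4T1 and in 16 of the 24 that were not called. Whether these shares differ was not tested.

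**Figure D1:**
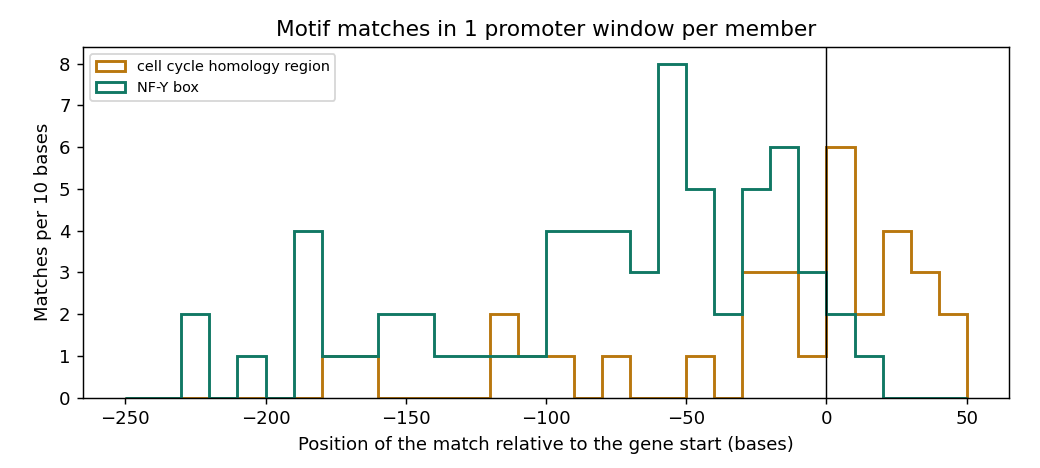
Positions of motif matches relative to the gene start (x axis, bases; 0 is the start) in 1 promoter window for each of 36 members, counted per 10 bases on the y axis. Matches to the cell cycle homology region (TTTGAA only, brown, 32 matches) gather around the start, while those to the NF-Y box (green, 64 matches) lie mostly in the 100 bases upstream.

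Each library held 33605566 to 39072639 reads assigned to genes. No 2 replicates of a line agreed within sampling noise (chi-square per gene of at least 23.9). The first principal component, with 89.9% of the variance, separated the lines, and the second, with 5.27%, set 4TO7 replicate 2 apart from the other libraries (score 52.2 against -27.5 to 9.50). The epithelial markers Epcam, Cdh1, Krt8, Krt18 and Cldn3 summed to 142463 to 160591 normalised read counts in the 4T1 libraries and to 25825 to 42450 in the 4TO7 libraries, and all 5 were higher in 4T1. The 5 leukocyte markers summed to at most 14.9, with Cd3e and Adgre1 at 0 in all libraries, the 5 endothelial markers to at most 65.7 and the 5 fibroblast markers to at most 69.7, with Lum at 0. Values below are normalised read counts, the read count of a gene divided by 1 size factor per library, and ± is the SD over 3 libraries of a line. Differences are log2(value + 1) of 4T1 minus 4TO7 with their standard error (SE) from limma, and a gene is called at a Benjamini-Hochberg adjusted p under 0.05 over the 14276 genes tested.

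The mitosis genes were abundant in both lines and differed little between them. All 43 passed the filter on low values, with means over the 6 libraries from 1534 to 45003. Of these, 14 were called, where 49% of all genes tested were. The 4T1 level was the higher in 13 (30.2%; 25.1% of all genes) and the 4TO7 level in 1 (2.33%; 23.9% of all genes). The first share is near that of all genes. The differences ran from -0.45 to 1.08 with a median of 0.27, against a median of 0.03 over all genes, and the median size without regard to sign was 0.36 for the members and 0.57 for all genes. Incenp alone reached a difference of 1 in either direction, as 4094 of all genes (28.7%) did. In bulk RNA, a smaller share of cells in G2 and mitosis and less transcript in each such cell cannot be told apart.

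The 2 lines did not overlap in 16 members (37.2%), against 58.4% of all genes. The 4T1 values were the higher in 13 of the 16 (29.8% of all genes) and the 4TO7 values in 3 (28.7% of all genes). In the authors' deposited table, 12 members were called with 4T1 higher and 1 with 4TO7 higher, where 19.4% and 19.7% of the genes with an adjusted p were called in these directions. Of the 14 called members only Kif23 was not called there, which had an adjusted p of 0.0584 in the authors' deposited table.

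The split of calls depended on scaling and on single libraries. The 13 and 1 called members became 8 and 3 with equal totals per sample, where 20.8% and 28.4% of all genes were called in these directions. They were 8 and 4 with quantile normalisation (23% and 26.2% of all genes) and 8 and 1 with edgeR (23.3% and 25.5%). Equal totals lowered the median of all genes by 0.13 to -0.10 and that of the members to 0.14. Without 4TO7 replicate 2, 23 members were called with 4T1 higher (29.2% of all genes) and 0 with 4TO7 higher (27.3% of all genes), and these 23 included all 13. This library was the highest of 4TO7 in 39 of the 43 members. Leaving it out therefore raises their differences by construction, and calls gained in this way, here and below, are not separate evidence of a higher 4T1 level. The other libraries were left out in turn, which also lowered the calls over all genes. Without 4T1 replicate 1, 2 or 3, the members higher in 4T1 numbered 11, 7 and 8 (21.3%, 19.9% and 21.5% of all genes), and without 4TO7 replicate 1 or 3 they numbered 6 and 6 (19.3% and 19.5%). In these 5 fits 0 members were higher in 4TO7, where 20.2%, 19.8%, 20.7%, 17.4% and 17.7% of all genes were, in the same order. Cdk1, Bub1b, Birc5, Incenp, Kif11 and Pttg1 were the 6 of 14 called members that were called in all 16 alternatives.

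**Figure D2:**
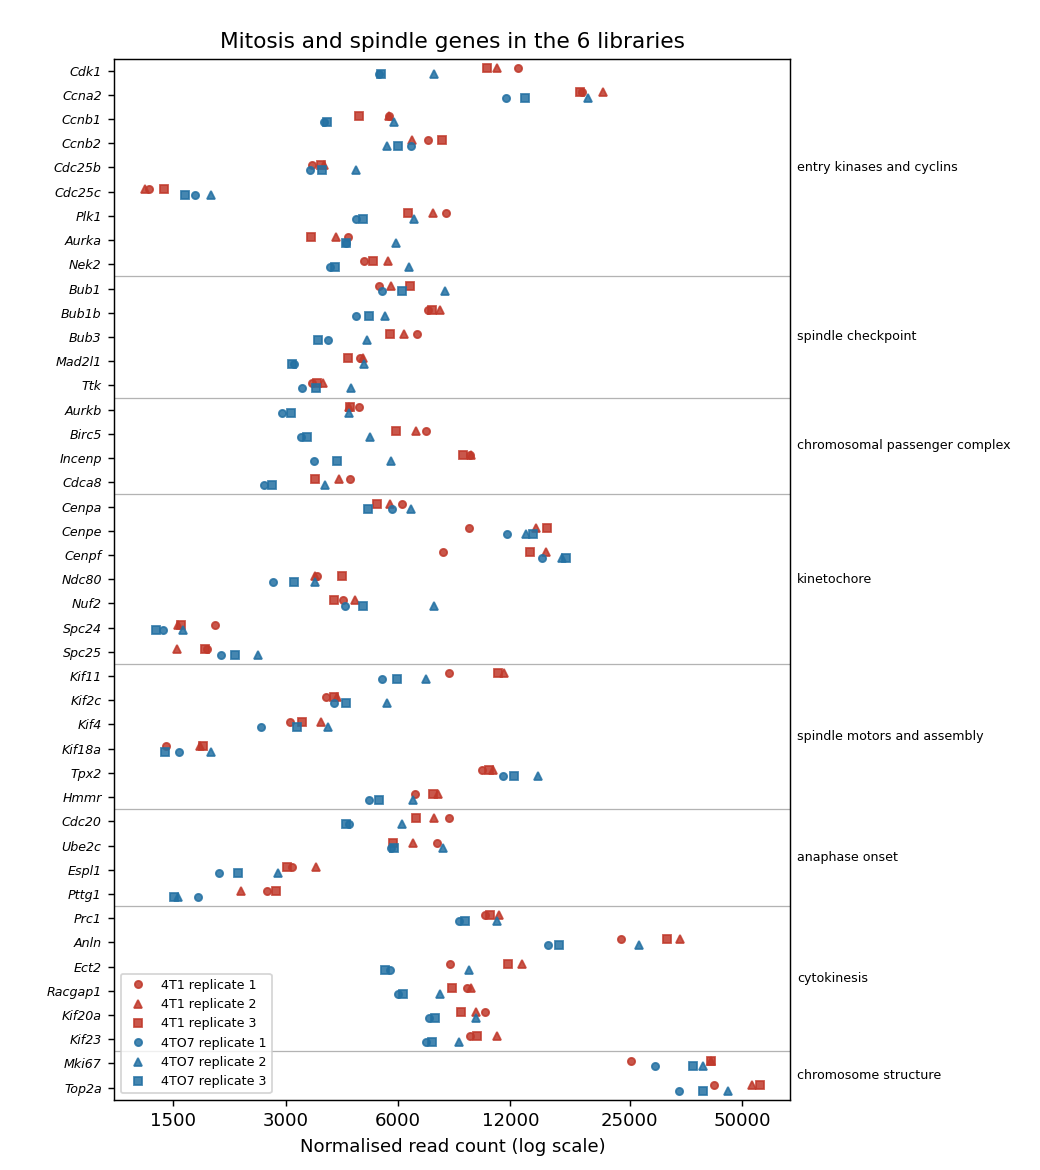
Normalised read count (x axis, log scale) of each of the 43 genes in each library; red symbols are 4T1, blue symbols 4TO7, and the shape gives the replicate. Cdk1, Incenp and Birc5 show 4T1 values wholly to the right of 4TO7, and 4TO7 replicate 2 (blue triangle) is the highest 4TO7 value in 39 of 43 rows.

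Among the kinases, cyclins and phosphatases of mitotic entry, 2 of 9 were called, 1 in each direction. Of all genes, 25.1% were called higher in 4T1 and 23.9% higher in 4TO7. Cdk1, the mitotic cyclin-dependent kinase (chromosome 10, 69335146 to 69352938), had 12560.0, 11054 and 10355 normalised read counts in 4T1 against 5343, 7510.4 and 5411 in 4TO7, here and below in the order of replicates 1 to 3. The 4T1 values lay above all 4TO7 values, with means of 11323 ± 1127 and 6088 ± 1232. Its difference was 0.91 ± 0.17 (SE; limma adjusted p = 0.00263), a 1.86-fold ratio of means.

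The cyclins that bind Cdk1 were not called. Ccna2 (cyclin A2) had 18685, 21236 and 18444 in 4T1 against 11693, 19326 and 13136, so that 4TO7 replicate 2 lay within the 4T1 range. Ccnb1 (cyclin B1) had 5663, 5680.3 and 4730.4 against 3808, 5843 and 3877, and there 4TO7 replicate 2 held the highest value of all. Without 4TO7 replicate 2 both were called, with differences of 0.65 (limma adjusted p = 0.0030) and 0.47 (0.0176). Leaving out this library, the highest of 4TO7 for both genes, raises their differences by construction. Ccnb2 (cyclin B2) had 7240.0, 6525 and 7871 against 6487, 5622 and 5986, without overlap but not called (adjusted p = 0.138), and it was the entry gene for which 4TO7 replicate 2 was the lowest 4TO7 library.

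Cdc25c, a phosphatase that activates Cdk1, was the 1 member higher in 4TO7. It had 1291, 1262 and 1419 in 4T1 against 1718, 1900.1 and 1611, with all 4TO7 values higher. The difference was -0.39 ± 0.14 (limma adjusted p = 0.0415), and the call was lost whichever library was left out: 4T1 replicates 1, 2 and 3 gave adjusted p = 0.0760, 0.1127 and 0.0613, and 4TO7 replicates 1, 2 and 3 gave 0.1157, 0.0749 and 0.0697. Its paralogue Cdc25b had means of 3688 ± 143 and 3957 ± 600 and was not called (adjusted p = 0.626).

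The other mitotic kinases were not called either. Plk1, the polo kinase of entry and spindle poles, had 8069, 7439 and 6385 against 4633, 6607 and 4821 (0.46 ± 0.17; limma adjusted p = 0.0561). Without 4TO7 replicate 2 its difference was 0.62 (0.0056). Aurka, the spindle pole Aurora kinase, had 4402, 4098 and 3513 against 4343, 5933 and 4346 (-0.27 ± 0.17; adjusted p = 0.208). Nek2, a centrosome kinase, had means of 5213 ± 383 and 4803 ± 1394 (adjusted p = 0.55), and 0.0342 without 4TO7 replicate 2.

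Of the 5 spindle checkpoint genes, 2 were higher in 4T1, where 25.1% of all genes were. Bub1b, which encodes BUBR1 of the mitotic checkpoint complex (chromosome 2, 118598211 to 118641591), had 7208, 7794 and 7418 in 4T1 against 4622, 5542 and 5017. Its lines did not overlap, and the difference was 0.57 ± 0.13 (limma adjusted p = 0.00645). Bub3, the WD-repeat partner of BUB1 and BUBR1, had 6725, 6237 and 5708 against 3902, 4950.0 and 3662, again without overlap (0.59 ± 0.15; adjusted p = 0.0134). The Bub3 call was lost without 4TO7 replicate 1 (adjusted p = 0.0560) or 4TO7 replicate 3 (0.0573).

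The kinase Bub1 did not follow them, with means of 5854 ± 567 and 6527 ± 1323 (-0.14 ± 0.17; limma adjusted p = 0.513). Ttk, the MPS1 kinase that starts checkpoint signalling, was at 3649.6 ± 124 and 3808 ± 601 (adjusted p = 0.794). Mad2l1, which encodes the MAD2 protein that inhibits CDC20, had 4749, 4843 and 4404 against 3165, 4876 and 3127. In Mad2l1 the 4TO7 replicates 1 and 3 were low and replicate 2 was level with 4T1. It was not called (adjusted p = 0.148) except without 4TO7 replicate 2 (0.57; 0.0048).

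The chromosomal passenger complex, which corrects faulty attachments and later acts at the midzone, held the largest difference of all members. All 4 genes had positive differences (median 0.60), and 2 were called higher in 4T1, where 25.1% of all genes were. Incenp, the scaffold subunit (chromosome 19, 9872296 to 9899551), had 9358, 9428 and 8974 in 4T1 against 3583, 5734 and 4113. The 4T1 values were close together and far above those of 4TO7, with a difference of 1.08 ± 0.18 (limma adjusted p = 0.00163), a 2.07-fold ratio of means.

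Birc5, which encodes survivin, the subunit that places the complex at centromeres (chromosome 11, 117849251 to 117855743), had 7119, 6687 and 5938 against 3291, 5049.5 and 3424. It did not overlap and differed by 0.77 ± 0.19 (limma adjusted p = 0.00923). The kinase itself, Aurkb, had 4716, 4436 and 4450.4 against 2941, 4439.6 and 3100.4, and 4TO7 replicate 2 reached the 4T1 range (0.40 ± 0.17; adjusted p = 0.0876). Cdca8, which encodes borealin, had 4468, 4171 and 3606 against 2619.6, 3834 and 2762 (adjusted p = 0.0771). Without 4TO7 replicate 2, Aurkb and Cdca8 were called, at 0.59 (0.0039) and 0.60 (0.0068).

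None of the 7 kinetochore genes was called by limma, where 49% of all genes were. Negative differences were found in 5 of the 7 (range -0.45 to 0.27) and in 6925 of the 14276 genes tested. Those of Cenpa (-0.006) and Cenpe (-0.04) were near 0 and changed sign in 3 and 2 of the 16 alternatives. At an unadjusted p under 0.05, 1 of them, Spc25, differed, and DESeq2 on the recovered reads called Spc25 (adjusted p = 0.0443). In the authors' deposited table Spc25 was not called (adjusted p = 0.0772). Ndc80 and Nuf2 encode the microtubule-binding end of the NDC80 complex. Ndc80 had 3647, 3586 and 4248 in 4T1 against 2772, 3589.6 and 3155, and Nuf2 had 4264, 4598 and 4039 against 4338, 7512 and 4845. Their differences had opposite signs, 0.27 ± 0.15 for Ndc80 and -0.33 ± 0.21 for Nuf2, with limma adjusted p of 0.154 and 0.213.

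Spc24 and Spc25, which encode the kinetochore end of the same complex, also had opposite signs. Spc24 had 1937, 1545 and 1572 against 1408, 1591 and 1349 (0.21 ± 0.15; limma adjusted p = 0.272). Spc25 had 1847, 1536 and 1822 against 2018, 2525 and 2197, without overlap (-0.37 ± 0.15; adjusted p = 0.0681), and it was called with equal totals per sample (-0.50; 0.0227). Cenpa, the centromeric histone H3 variant, had means of 5707 ± 424 and 5754 ± 765 (adjusted p = 0.976).

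The long kinetochore genes Cenpe, a plus-end-directed kinesin, and Cenpf, a coiled-coil protein of the outer kinetochore, were low in 1 library of 4T1. Cenpf had 7918, 14928 and 13573 in 4T1 against 14531, 16508 and 16939, and Cenpe had 9288, 14022 and 15039.7 against 11772, 13192 and 13783. In both, 4T1 replicate 1 was the lowest of the 6 libraries. Neither was called (limma adjusted p = 0.142 and 0.868). Cenpf was called after quantile normalisation (-0.61, adjusted p = 0.0392) and with the replicate block, but without 4T1 replicate 1 its difference was only -0.16.

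Of 6 spindle motor and assembly genes, 1 was higher in 4T1, a smaller share than the 25.1% of all genes. Kif11, the plus-end motor that pushes spindle poles apart (chromosome 19, 37376403 to 37421859), had 8194, 11549 and 11118 against 5448, 7146 and 5975. The lines did not overlap although 4T1 replicate 1 lay below the other 4T1 libraries, and the difference was 0.73 ± 0.17 (limma adjusted p = 0.00933). Hmmr, a spindle-binding protein that helps to place TPX2, had 6668, 7692 and 7422 against 5028, 6590.2 and 5348, without overlap (adjusted p = 0.0653; 0.0123 without 4TO7 replicate 2).

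Tpx2, which activates Aurora A at spindle microtubules, went the other way, at 10059.9, 10803 and 10519 against 11460.0, 14185 and 12261. All 4TO7 values were higher, but it was not called (-0.27 ± 0.13; limma adjusted p = 0.117) except with equal totals (0.0256) or quantile normalisation (0.0188). Kif2c, a microtubule depolymerase at centromeres, had means of 4002 ± 143 and 4665 ± 832 (adjusted p = 0.29). Kif4, a chromokinesin, had 3382 ± 337 and 3230.2 ± 655 (adjusted p = 0.722). Kif18a, a motor that limits chromosome oscillation, had 1669 ± 205 and 1626 ± 242 (adjusted p = 0.858). The small positive differences of Kif4 (0.08) and Kif18a (0.04) became negative with equal totals (-0.047 and -0.089).

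**Figure D3:**
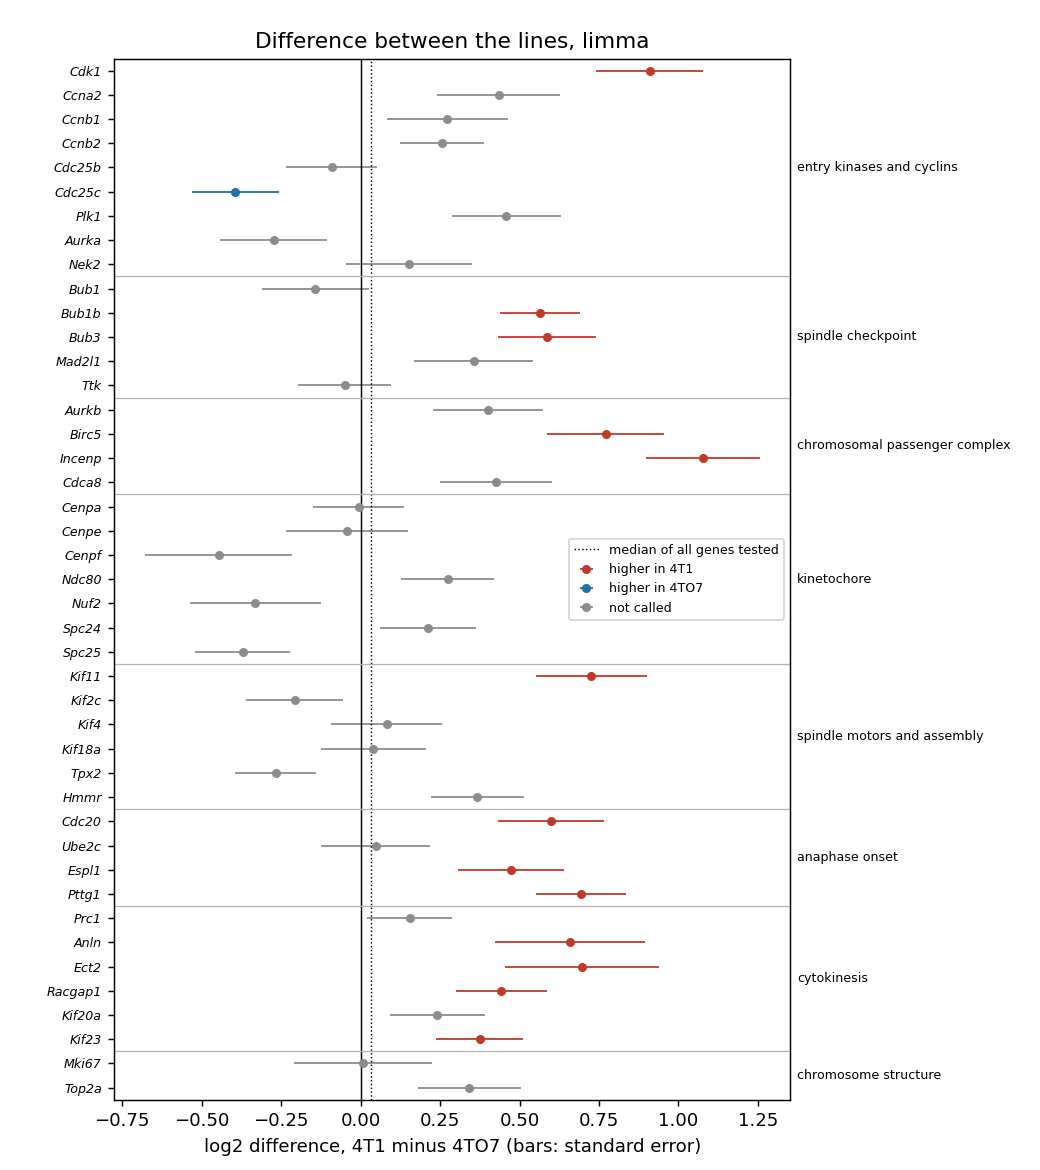
Difference between the lines in log2 units (x axis, 4T1 minus 4TO7) for each of the 43 genes, with the standard error from limma as bars; red genes were higher in 4T1, blue higher in 4TO7 and grey not called. Incenp lies farthest to the right at 1.08, and the kinetochore genes are all grey, spread from -0.45 to 0.27.

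At the onset of anaphase, 3 of 4 genes were higher in 4T1, where 25.1% of all genes were. Without the Espl1 call, which depended on the scaling, 2 of 4 were. Pttg1, which encodes securin, the inhibitor of separase (chromosome 11, 43420250 to 43426251), had 2669, 2277 and 2827 against 1744, 1542 and 1509.9. It did not overlap and differed by 0.69 ± 0.14 (limma adjusted p = 0.00447), and 4TO7 replicate 2 was not the highest 4TO7 library. Cdc20, the activator of the anaphase-promoting complex, had 8224, 7504 and 6708 against 4442, 6139.5 and 4367 (0.60 ± 0.17; adjusted p = 0.0184). The lines of Cdc20 did not overlap, but Cdc20 was no longer called when 4T1 replicate 1 (adjusted p = 0.0598) or 2 (0.0571) or 4TO7 replicate 1 (0.0745) or 3 (0.0708) was left out.

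Espl1, which encodes separase, had 3123, 3615 and 3030.3 against 1991, 2862 and 2237 (0.47 ± 0.17; limma adjusted p = 0.0441). All its 4T1 values were higher. The call was lost whenever a library other than 4TO7 replicate 2 was left out: without 4T1 replicate 1, 2 or 3 the adjusted p was 0.0776, 0.1416 and 0.0702, and without 4TO7 replicate 1 or 3 it was 0.1707 and 0.1224. It was also lost with edgeR (0.0665), equal totals (0.0988), quantile normalisation (0.0626), no trend (0.0734) and no low-value filter (0.0549). Ube2c, the ubiquitin-conjugating enzyme of the same complex, had 7647, 6592 and 5805 against 5742, 7908 and 5845, with wide overlap (0.05 ± 0.17; adjusted p = 0.838; -0.082 with equal totals).

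Of the 6 cytokinesis genes, 4 were higher in 4T1 by limma, where 25.1% of all genes were, and 0 of 6 with equal totals, quantile normalisation, a variance fit with neither trend nor robust estimation, or edgeR. All 6 had positive differences by limma, although that of Prc1 was -0.0027 after quantile normalisation. Anln, which encodes the ring scaffold anillin, had 23759, 34182 and 31518 against 15103, 26576 and 16185. Ect2, the exchange factor that activates RhoA at the equator, had 8253, 12853 and 11833 against 5717, 9314 and 5538. In Anln and Ect2, 4T1 replicate 1 was low and 4TO7 replicate 2 high, so that these 2 libraries crossed. Their differences were 0.66 ± 0.24 and 0.70 ± 0.24 (limma adjusted p = 0.0469 and 0.0430). Both calls were lost without 4T1 replicate 2 (0.1520 and 0.1470), 4T1 replicate 3 (0.1234 and 0.1198), 4TO7 replicate 1 (0.1549 and 0.1336) or 4TO7 replicate 3 (0.1350 and 0.1328). They were also lost with equal totals (0.0765 and 0.0686), quantile normalisation (0.1175 and 0.0632), the variance fit without trend (0.0806 and 0.0740) and edgeR (0.0647 and 0.0517).

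Racgap1 and Kif23 encode the 2 subunits of centralspindlin, the midzone complex that recruits ECT2. Racgap1 had 9185, 9392 and 8389 against 5994, 7779 and 6175 (0.44 ± 0.14; limma adjusted p = 0.0315), and Kif23 had 9328, 11015 and 9758 against 7112, 8717 and 7416 (0.37 ± 0.14; adjusted p = 0.0493). Neither overlapped. The call of Racgap1 was lost without 4T1 replicate 1, 2 or 3 (0.0664, 0.0940 and 0.0553) and without 4TO7 replicate 1 or 3 (0.1290 and 0.1111), and that of Kif23 without 4T1 replicate 2 or 3 (0.1471 and 0.1020) and without 4TO7 replicate 1 or 3 (0.1814 and 0.1467). The adjusted p of Racgap1 and Kif23 was 0.0535 and 0.0783 with edgeR, 0.0856 and 0.1419 with equal totals, 0.0924 and 0.1623 with quantile normalisation and 0.0608 and 0.0879 without trend. Kif23 was also not called without the low-value filter (0.0725).

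The other cytokinesis genes were not called. Prc1, which bundles antiparallel microtubules of the midzone, had means of 10658 ± 466 and 9622 ± 1220 (limma adjusted p = 0.368). Kif20a, a midzone kinesin, had 9603 ± 696 and 8182 ± 1349 (adjusted p = 0.214; 0.0350 without 4TO7 replicate 2).

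The proliferation markers of chromosome structure were not called. Mki67, which coats mitotic chromosomes, had 25182, 41352 and 41399.6 in 4T1 against 29189, 39306 and 37007, and 4T1 replicate 1 held the lowest value of all. Its difference was 0.01 ± 0.22 (limma adjusted p = 0.98) and was negative with equal totals (-0.12). Top2a, which untangles DNA before anaphase, had 42143, 53042 and 55754 against 33997, 45766 and 39315 (0.34 ± 0.16; adjusted p = 0.112; 0.0347 without 4TO7 replicate 2). Without 4T1 replicate 1 Top2a was also called, at a difference of 0.46 and an adjusted p just inside 0.05.

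Compared per kilobase of exon, Top2a had the highest mean in both lines, at 5582 ± 799 normalised counts per kilobase in 4T1 and 4404 ± 654 in 4TO7. In 4T1 it was followed by Ccna2 at 4765 ± 379 and Ccnb2 at 4711 ± 440 per kilobase, and in 4TO7 by Ccnb2 at 3940 ± 284 and Ccna2 at 3605 ± 993. In each line the mean ± SD of these 3 genes overlapped, so their order is not beyond their spread. Kif18a was the least abundant per kilobase in both lines (169.7 ± 20.8 and 165.4 ± 24.6). The next lowest was Cdc25c in 4T1 (269 ± 16.9) and Espl1 in 4TO7 (270.1 ± 51.3). These lengths join all annotated exons of a gene in GENCODE M21, so genes with many annotated isoforms appear lower.

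Most members were high together in 1 library of 4TO7. In 4TO7 replicate 2, 39 of 43 were the highest of the 3 4TO7 libraries (90.7%), where this library was the highest in 40.5% of all genes tested. Relative to the mean of 4TO7 replicates 1 and 3, its log2 level was higher by a median of 0.39 over the members (range -0.15 to 0.77) and by -0.01 over all genes. Anln (0.77), Ect2 (0.73) and Nuf2 (0.71) lay highest, and Ccnb2 (-0.15) and Pttg1 (-0.07) were the members that lay lower. The members made up 1.07% of the normalised counts of 4TO7 replicate 2, against 0.821% and 0.874% in 4TO7 replicates 1 and 3 and 0.936% to 1.06% in the 4T1 libraries, so that this library was above every 4T1 library in the share.

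In 4T1 the members went both ways: replicate 1 was the lowest 4T1 library in 19 of 43 (44.2%), against 36.4% of all genes, and its deviation ran with gene length. Across the 43 members, exon length and the log2 level of 4T1 replicate 1 relative to replicates 2 and 3 had a Spearman correlation of -0.66, and across the 14226 tested genes with a length it was -0.41. These points are genes of the same 3 libraries and are not independent. The long genes Cenpf (-0.85), Mki67 (-0.72), Cenpe (-0.64), Ect2 (-0.58), Anln (-0.47) and Kif11 (-0.47) were low in this library, while the short genes Ube2c and Spc24 were high (0.31 each). The part of this length relation in the differences between the lines was not tested; the differences themselves had a correlation of -0.07 with exon length over the 43 members.

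**Figure D4:**
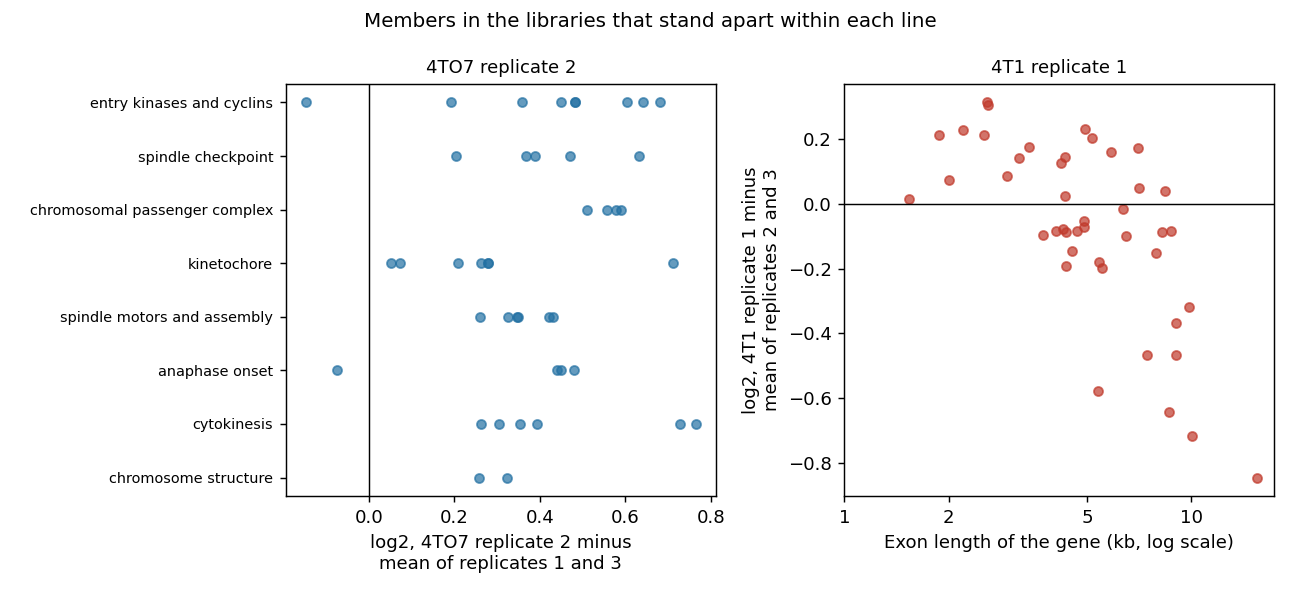
Left, log2 level in 4TO7 replicate 2 minus the mean of replicates 1 and 3 for each member, by role (each point is a gene); all but 2 of the 43 lie right of 0. Right, log2 level in 4T1 replicate 1 minus the mean of replicates 2 and 3 (y axis) against exon length (x axis, kb, log scale); the points fall with length, to -0.85 for Cenpf.

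Because of this shared shift in 4TO7 replicate 2, pairs of members were also compared as a ratio within each library. A shift common to both genes and the scaling cancel in such a ratio. The 17 pairs were chosen for physical or functional partnership after the values of the single genes had been seen. Aurka/Aurkb compares related kinases that are not partners in a complex. Each ratio is of normalised counts, so its level depends on the lengths of both transcripts and only its change between lines is read. With 3 libraries against 3, the two-sided exact permutation test cannot go below p = 0.1 (0.189 adjusted over the 17 pairs), so none could pass and the test adds nothing to the overlap. In 9 of the 17 pairs the ratios of the lines did not overlap. The direction of a ratio depends on which gene is written as its denominator, so directions are not counted over the pairs. Some pairs share a gene, such as Cdk1, and are not independent. Among single genes 58.4% did not overlap, and since the pairs were chosen with the values known, the count is a description of these pairs alone.

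Of the 3 cyclins, Ccnb1 and Ccna2 had a higher ratio to Cdk1 in every 4TO7 library than in any 4T1 library. The ratio Ccnb1/Cdk1 was 0.451, 0.514 and 0.457 in 4T1 and 0.713, 0.778 and 0.716 in 4TO7, 1.55-fold higher in 4TO7 by the means. Here 4TO7 replicate 2 lay close to the other libraries of its line. Ccna2/Cdk1 was 1.39-fold higher (1.73 ± 0.22 against 2.40 ± 0.19). Ccnb2/Cdk1 was 1.57-fold higher in 4TO7 by the mean log2 ratios (0.64 ± 0.10 against 1.02 ± 0.24) but overlapped between the lines. Its 4TO7 values were 1.21, 0.749 and 1.11, and 4T1 replicate 3 had 0.760. Ccnb2 did not rise in 4TO7 replicate 2 as Cdk1 did, so the shift of that library does not cancel in this ratio.

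Within the passenger complex, Incenp/Aurkb was 1.98, 2.13 and 2.02 in 4T1 and 1.22, 1.29 and 1.33 in 4TO7, 1.6-fold higher in 4T1. Birc5/Aurkb was 1.29-fold higher in 4T1 (1.45 ± 0.10 against 1.12 ± 0.02). Cdca8/Aurkb was 0.90 ± 0.08 and 0.88 ± 0.02 and overlapped. Of the 3 partners, Incenp and Birc5 stood higher relative to the kinase in every 4T1 library, and Cdca8 did not.

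Both pairs of the NDC80 complex had a higher ratio in 4TO7. Nuf2/Ndc80 was 1.17, 1.28 and 0.951 in 4T1 and 1.56, 2.09 and 1.54 in 4TO7, 1.52-fold higher in 4TO7, and Spc25/Spc24 was 0.954, 0.994 and 1.16 against 1.43, 1.59 and 1.63, 1.5-fold higher. Aurka/Aurkb was 1.6-fold higher in 4TO7 (0.88 ± 0.08 against 1.40 ± 0.07), while Tpx2/Aurka did not separate (2.64 ± 0.35 against 2.62 ± 0.22). Bub1/Bub3 was 1.66-fold higher in 4TO7, whereas Bub1b/Bub3 was 1.21 ± 0.12 and 1.22 ± 0.13. Mad2l1/Cdc20 was 1.18-fold higher in 4TO7 without overlap. The ratios Pttg1/Espl1, Kif23/Racgap1, Ect2/Racgap1 and Kif4/Prc1 overlapped between the lines.

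**Figure D5:**
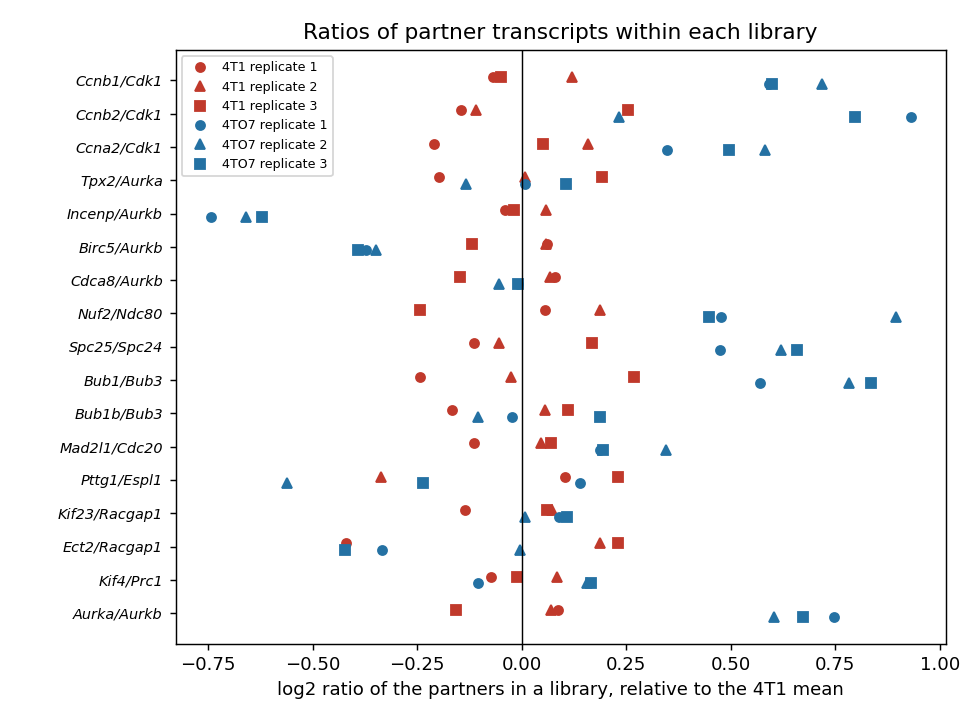
Log2 ratio of the 2 transcripts of a pair within each library, set to 0 at the 4T1 mean (x axis), for 17 pairs (rows). Red is 4T1, blue 4TO7, and the shape gives the replicate. The ratios Ccnb1/Cdk1, Nuf2/Ndc80, Spc25/Spc24, Bub1/Bub3 and Aurka/Aurkb lie to the right in all 3 4TO7 libraries, and Incenp/Aurkb and Birc5/Aurkb to the left.

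Other genes of mitosis were read from 5 further lists with 120 genes, all of which were tested. The 4T1 level was the higher in 24 of them (25.1% of all genes) and the 4TO7 level in 12 (23.9% of all genes). Both shares were below those of all genes, and the median difference was 0.16. The counts were 18 and 20 with equal totals per sample (20.8% and 28.4% of all genes). They were 21 and 17 with quantile normalisation (23% and 26.2%), and 43 and 10 without 4TO7 replicate 2 (29.2% and 27.3%). Without 4T1 replicate 2 they were 15 and 5 (19.9% and 19.8% of all genes). Leaving out 4T1 replicate 1, 4TO7 replicate 1 or 4TO7 replicate 3 gave 6, 4 and 5 genes higher in 4TO7. Of all genes, 20.2%, 17.4% and 17.7% were higher in 4TO7 in these fits. 4TO7 replicate 2 was the highest 4TO7 library in 99 of the 120 (82.5%), against 40.5% of all genes, so leaving it out raises most of these differences by construction.

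Of 20 regulators of mitotic transcription and entry, 5 were higher in 4T1 and 0 were lower (25.1% and 23.9% of all genes). The first share is near that of all genes. Mybl2, the MuvB partner that switches on G2 genes, was 2.57-fold higher in 4T1 at 3440.1 ± 489 against 1336 ± 522 (1.43 ± 0.26; limma adjusted p = 0.0027), Mad1l1, the MAD2 anchor at kinetochores, 1.82-fold and Pkmyt1, an inhibitory kinase of Cdk1, 1.71-fold. Mastl, the Greatwall kinase, was 1.67-fold higher, which did not hold when 4T1 replicate 2 (adjusted p = 0.0636), replicate 3 (0.0640) or 4TO7 replicate 1 (0.0701) was left out. The other kinetochore and centromere genes went both ways, with 7 of 32 higher in 4T1 and 5 lower. Both are smaller shares than those of all genes. Cenpn and Cenpk of the inner kinetochore were 2.23-fold and 2.20-fold higher in 4T1 and Spdl1, a dynein adaptor, 1.81-fold, while Dsn1 of the MIS12 complex was 1.81-fold higher in 4TO7.

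Condensin and cohesin genes numbered 3 of 20 higher in each line, where 25.1% of all genes were higher in 4T1 and 23.9% in 4TO7. Ncapg2 and Ncaph2, subunits of condensin II, were 2.11-fold and 1.52-fold higher in 4T1, as was Cdca5, which encodes the cohesin protector sororin (1.85-fold), whereas the cohesin subunit Smc1a was 1.67-fold higher in 4TO7. Of the other spindle motors and spindle pole genes, 6 of 32 were higher in 4T1 and 2 lower, again smaller shares than those of all genes. Cep55, which acts at abscission, was 2.00-fold, the depolymerase Kif2a 1.84-fold, the augmin subunit Haus8 1.81-fold and Kif20b 1.78-fold higher in 4T1. Kif20b was no longer called when 4T1 replicate 2 (limma adjusted p = 0.0767) or 3 (0.0601) or 4TO7 replicate 1 (0.0716) or 3 (0.0596) was left out.

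The anaphase-promoting complex had 3 of 16 genes higher in 4T1 and 2 lower, where 25.1% and 23.9% of all genes were. Anapc10, which helps to bind substrates, was 1.74-fold higher in 4T1 (0.79 ± 0.16; limma adjusted p = 0.0042) and the subunit Cdc16 1.33-fold. The scaffold subunit Anapc1 was 1.41-fold and the small subunit Cdc26 1.35-fold higher in 4TO7. The call of Cdc16 was lost without 4T1 replicate 2 (0.0519), 4T1 replicate 3 (0.0600) or 4TO7 replicate 1 (0.1102), that of Anapc1 without 4T1 replicate 1 (0.1043), 4T1 replicate 3 (0.0848), 4TO7 replicate 1 (0.0773) or 4TO7 replicate 2 (0.0713), and that of Cdc26 without 4T1 replicate 2 (0.1180), 4T1 replicate 3 (0.1457), 4TO7 replicate 1 (0.1602) or 4TO7 replicate 3 (0.1053). Cdc16 was also not called with equal totals (0.0979).

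Genes of DNA replication and licensing, which act before mitosis, gave the comparison within the cell cycle. Of 35 genes, 17 were higher in 4T1 and 0 lower (25.1% and 23.9% of all genes), with a median difference of 0.45. A difference of 1 on the log2 scale was reached by 7 of 35 (20%) and by 1 of the 43 mitosis genes. Both shares were below the 28.7% of all genes that reached it in either direction. Without 4TO7 replicate 2, 24 were higher in 4T1, where 29.2% of all genes were. Mcm5, Mcm3, Cdt1 and Orc1, which license origins, were 2.86-fold, 2.67-fold, 2.60-fold and 2.42-fold higher in 4T1. 4TO7 replicate 2 was again the highest 4TO7 library, in 34 of 35 (97.1%, against 40.5% of all genes), so leaving it out raises these differences by construction. Its log2 level was above the mean of replicates 1 and 3 by a median of 0.49. Whether the 2 lists differ from each other was not tested.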

How the data were processed

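RNA from 3 libraries each of 4T1 and 4TO7 was analysed. The deposited table holds, for each gene and library, a normalised signal in which the authors scaled reads by a factor common to all genes of a library, as its values show. The submitters' processing notes name STAR 2.5, featureCounts 1.5, DESeq2 and GRCm38; annotation release and use of strand are not given in the sources used here. The exons of 12 members overlap a gene on the opposite strand (Kif20a with Cdc23 and Ccna2 with Exosc9, for example) and those of Top2a overlap Gm23451, which had no reads; without the strand setting, reads of opposite genes cannot be told apart. The authors' deposited columns of log2 fold change (with its standard error, 4TO7 over 4T1), test score, p-value and adjusted p-value were read for the members and to count calls over all genes. The 6 sample columns were whole multiples of 1 step (100% of nonzero values within 1e-06), which gave the reads.

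Values were tested on log2(value + 1) with limma 3.58.1 in R 4.3.3 (trend, robust, line as the only term) in genes with at least 10 in at least 3 samples, 14276 genes, two-sided, with Benjamini-Hochberg adjustment over all of them at 0.05. edgeR 4.0.16 and DESeq2 1.42.0 on recovered reads were alternatives, with other pseudocounts, filters, scalings, a replicate block and leaving out each library. The pipeline was tested on simulated data. The members, lists and roles were chosen with earlier results of these data known. All members may be named, and from each other list up to 4 called genes with the largest difference. Gene positions and exon lengths are from GENCODE M21 (GRCm38).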

Additional observations from a re-analysis of the deposited data

How the results depend on the processing

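The count of members higher in 4T1 (13) was 8 with equal totals per sample, quantile normalisation, a variance fit with neither trend nor robust estimation, and edgeR, and 6 (without 4TO7 replicate 1 or 3) to 23 (without 4TO7 replicate 2) with 1 library left out. The count higher in 4TO7 (1) was 0 without a low-value filter and without trend, 2 with DESeq2, 3 with equal totals, 4 with quantile normalisation and 0 with any 1 library left out. For other mitosis genes, the 24 higher in 4T1 became 15 to 43 with a library left out, and the 12 higher in 4TO7 became 20 with equal totals, 5 without trend and 4 to 10 with a library left out.

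The values do not settle whether the replicate numbers pair the libraries. Same-numbered libraries correlated at -0.013, 0.27 and 0.33 in their deviations from the line means. 4T1 replicates 2 and 3 correlated best with their own number, and 4T1 replicate 1 with 4TO7 replicate 2 (0.11). With the replicate block, 17 members were higher in 4T1 and 2 in 4TO7. The members that gained a call were Ccna2, Plk1, Hmmr and Top2a (higher in 4T1) and Cenpf (higher in 4TO7). The counts were 31 and 16 for the other mitosis genes, and 3990 and 3760 for all genes. Each count was above that of the main fit.

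Equal totals, quantile normalisation and edgeR gave negative differences for Kif18a (-0.089, -0.036 and -0.0025) and Mki67 (-0.12, -0.18 and -0.0083), equal totals and quantile normalisation for Kif4 (-0.047 and -0.0062) and Ube2c (-0.082 and -0.087), and quantile normalisation for Prc1 (-0.0027). With 1 library left out, differences changed sign within the ranges -0.18 to 0.028 (Cdc25b), -0.26 to 0.014 (Bub1), -0.14 to 0.073 (Ttk), -0.11 to 0.087 (Cenpa), -0.18 to 0.17 (Cenpe), -0.071 to 0.23 (Kif4), -0.048 to 0.16 (Kif18a), -0.055 to 0.20 (Ube2c) and -0.12 to 0.25 (Mki67). None of these 10 members was called, and the causes were not tested. Of 688 alternatives computed for members, 58 lost a call, 22 gained one and 29 changed sign. Counts of all genes and of replication genes stayed within 1.5 times. The number of libraries, 3 a line, limits the precision of every difference.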
